A study of Mus musculus with 6 samples.

Results

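The expression of genes around Gpcpd1 and the turnover of glycerophosphocholine were followed in the interscapular brown fat, a heat-producing depot, of cold-exposed mice. They were taken by name from the 54385 rows of the deposited table, and all 10 were found. They are 5 glycerophosphodiesterases (Gpcpd1, Gde1, Gdpd1, Gdpd3 and Gdpd5), the deacylating phospholipases Pnpla6 and Pnpla7, and the choline phospholipid enzymes Chka, Pcyt1a and Pemt. The genes were chosen by 1 measured value, the lower level of Gpcpd1 in ADCY3∆AT than in wild type, together with their place in the pathway. For this reason the Gpcpd1 difference between genotypes is described here without a test. There were 3 ADCY3∆AT libraries and 3 wild-type libraries, all from C57BL/6N mice aged 20 weeks that ate chow until 8 weeks of age and then a high-fat diet for 12 weeks. Both genotypes were kept at 4 °C for 24 h, so no library comes from a warm or chow-fed animal. ADCY3∆AT mice lack the AT form of adenylyl cyclase 3, a truncated form that the study's title calls cold-induced, and the labels name no tissue or cell type to which the deletion is restricted. The series text names an inguinal depot, in conflict with the sample labels, which all give interscapular and were used here.

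Glycerophosphocholine is what remains of phosphatidylcholine, the main membrane phospholipid, when both fatty acids have been removed. Pnpla6 and Pnpla7 encode enzymes that carry out this deacylation, and the enzyme encoded by Gpcpd1 splits the product into choline and glycerol 3-phosphate. Choline can return to phosphatidylcholine through choline kinase (Chka) and phosphocholine activation with CTP (Pcyt1a), while Pemt makes phosphatidylcholine by methylating phosphatidylethanolamine. Gde1, Gdpd1, Gdpd3 and Gdpd5 share the phosphodiesterase fold with Gpcpd1 but act on other or further substrates, among them glycerophosphoinositol (Gde1), lysophospholipids (Gdpd1 and Gdpd3) and the lipid anchors of surface proteins (Gdpd5).

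Promoter sequences from RefSeq (GRCm38.p6), running from 250 bases before to 50 bases after a start site, matched 8 of the 10 genes, with 13 entries in all, and Gpcpd1 and Gdpd5 were not among them. The promoters of Gde1, Gdpd3 and Gdpd1 are shown because these diesterases were the most abundant, the most variable between libraries and the least abundant of the listed genes. Capitals mark TGACG, the short site bound by cyclic AMP response factors, read on either strand (CGTCA).
Gde1 (chr7:118705689-118705988, minus strand): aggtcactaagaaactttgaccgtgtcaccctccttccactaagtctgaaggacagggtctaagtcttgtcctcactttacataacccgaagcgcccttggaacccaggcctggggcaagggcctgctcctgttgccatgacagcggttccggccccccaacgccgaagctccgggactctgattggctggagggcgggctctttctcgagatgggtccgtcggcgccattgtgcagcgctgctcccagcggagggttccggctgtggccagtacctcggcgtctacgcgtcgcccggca
Gdpd3 (chr7:126766164-126766463, plus strand): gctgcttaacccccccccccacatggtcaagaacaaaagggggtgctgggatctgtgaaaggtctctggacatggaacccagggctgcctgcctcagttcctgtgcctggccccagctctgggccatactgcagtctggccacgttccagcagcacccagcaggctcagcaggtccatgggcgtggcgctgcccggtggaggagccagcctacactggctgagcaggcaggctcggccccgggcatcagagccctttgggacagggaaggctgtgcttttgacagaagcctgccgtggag
Gdpd1 (chr11:87074088-87074387, minus strand): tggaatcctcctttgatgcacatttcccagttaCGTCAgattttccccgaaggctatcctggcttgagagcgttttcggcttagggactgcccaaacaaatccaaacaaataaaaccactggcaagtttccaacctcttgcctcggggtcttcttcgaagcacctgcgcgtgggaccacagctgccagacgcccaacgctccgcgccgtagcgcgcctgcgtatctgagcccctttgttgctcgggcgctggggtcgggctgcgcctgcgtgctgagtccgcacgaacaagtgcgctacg
The Gdpd1 entry held 1 TGACG, while the letters were not in the Gde1 and Gdpd3 windows. Over the 13 entries, 4 held TGACG (1 each of Chka, Gdpd1, Pcyt1a and Pnpla6), against 20.8% of 32851 promoters of the same length. The full palindrome TGACGTCA, which contains TGACG on both strands, was in 0 of the 13 and in 1.79% of all promoters. CpG dinucleotides numbered 22 in the Gde1 window, 7 in that of Gdpd3 and 25 in that of Gdpd1, with a median of 7 over all promoters. These matches describe the letters only.

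Library totals ranged from 44826777 to 54933588 estimated counts. Levels are given as CPM, estimated counts scaled to a common library total, after TMM scaling between libraries. Adcy3 itself had 348.5, 341.9 and 505.6 CPM in ADCY3∆AT libraries, against 676.9, 727.8 and 651.9 CPM in wild-type libraries, and a row outside the annotation that shares its final digits (ENSMUSG66666620654) was listed at 0 in every ADCY3∆AT library and at 477.4 to 628.6 CPM in wild type. Among the ADCY3∆AT libraries, replicate 3 had the Adcy3 level closest to wild type. The log2 fold change of Adcy3 was -0.78. Adcy3 itself did not pass over all genes in edgeR (adjusted p = 0.158), while DESeq2 called it lower (adjusted p = 4.26e-07). The 10 brown adipocyte markers were all detected and summed to 18550 to 19020 CPM in ADCY3∆AT and to 19560 to 19630 CPM in wild type. Ucp1 alone gave 9972 to 10240 CPM of this in ADCY3∆AT and 10330 to 10650 CPM in wild type. The median log2 fold change of the 10 was -0.03, and 3 were positive. The groups did not overlap for 3, all lower, against 8.83% of all genes tested. These were Ucp1, Dio2 and Elovl3, with log2 fold changes of -0.06, -0.75 and -0.38. The 30 skeletal muscle markers summed to 260.4, 660.6 and 968.7 CPM in ADCY3∆AT and to 2749, 1859 and 4859 CPM in wild type, with all 30 fold changes negative and groups that did not overlap for 29, all lower, against 8.83% of all genes tested. In ADCY3∆AT replicate 1, 7 of the 30 were listed at 0, Ckm (muscle creatine kinase) and Myh7 (slow myosin heavy chain) among them.

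Gpcpd1 (ENSMUSG00000027346, a protein-coding gene on the minus strand of chromosome 2, 132529082 to 132587729, GRCm38) was lower in every ADCY3∆AT library than in every wild-type library. It had 43.5, 46.2 and 52.7 CPM in ADCY3∆AT libraries, against 69.9, 73.4 and 64.5 CPM in wild-type libraries. The groups do not overlap, and the highest ADCY3∆AT library, replicate 3, is also the one with the most Adcy3. ADCY3∆AT replicates 1 and 2 were in the opposite order for these genes, with Adcy3 at 348.5 and 341.9 CPM. A relation of Gpcpd1 to the Adcy3 level was not tested. The means were 47.5 ± 4.8 CPM in ADCY3∆AT and 69.3 ± 4.5 CPM in wild type (SD, n = 3 each). On the log2 scale the fold change was -0.55 ± 0.08 (SE). Between 1988 and 3836 estimated counts per library lay behind these values. Over 13 other settings the log2 fold change ranged from -0.63 to -0.49, both ends coming from leaving out an ADCY3∆AT library (replicate 3 for the first, replicate 1 for the second). For a tissue homogenate, fewer cells that express the gene and less of its RNA per cell cannot be told apart.

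Skeletal muscle transcripts differed between the same libraries, and their part in the Gpcpd1 difference was not tested. Among wild-type libraries, replicate 3 had the highest muscle sum (4859 CPM) and the lowest Gpcpd1 (64.5 CPM), and replicate 2 the lowest muscle sum (1859 CPM) and the highest Gpcpd1 (73.4 CPM). Among ADCY3∆AT libraries the order was the same for both, with replicate 1 lowest and replicate 3 highest. ADCY3∆AT replicate 1, in which the muscle sum was 260.4 CPM, had Gpcpd1 at 43.5 CPM. Most of that sum was Mb (223.3 CPM), the muscle marker whose groups overlapped, while Ttn had 1.84 CPM in that library. In wild-type replicate 3, Ttn gave 2481 CPM of the sum, so the make-up of the sum differs between libraries. The 6 endothelial markers summed to 976.7, 1024 and 1040 CPM in ADCY3∆AT and 963.6, 900.2 and 933.3 CPM in wild type, also without overlap. Kdr, the largest of them, overlapped between groups (log2 fold change -0.04). The other 5 were higher without overlap, against 7.68% of all genes tested, and none of the 6 passed over all genes in edgeR. The 5 Schwann cell markers summed to 41.2 to 47.3 CPM in ADCY3∆AT and 51.2 to 56.7 CPM in wild type, most of it Mbp (35.3 to 40.8 CPM in ADCY3∆AT, 42.4 to 49.6 CPM in wild type). Groups did not overlap for 2 of the 5, Mbp and Prx, both lower, against 8.83% of all genes tested. None of the 5 passed over all genes in edgeR. Macrophage and fibroblast sums overlapped between genotypes.

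**Figure D1:**
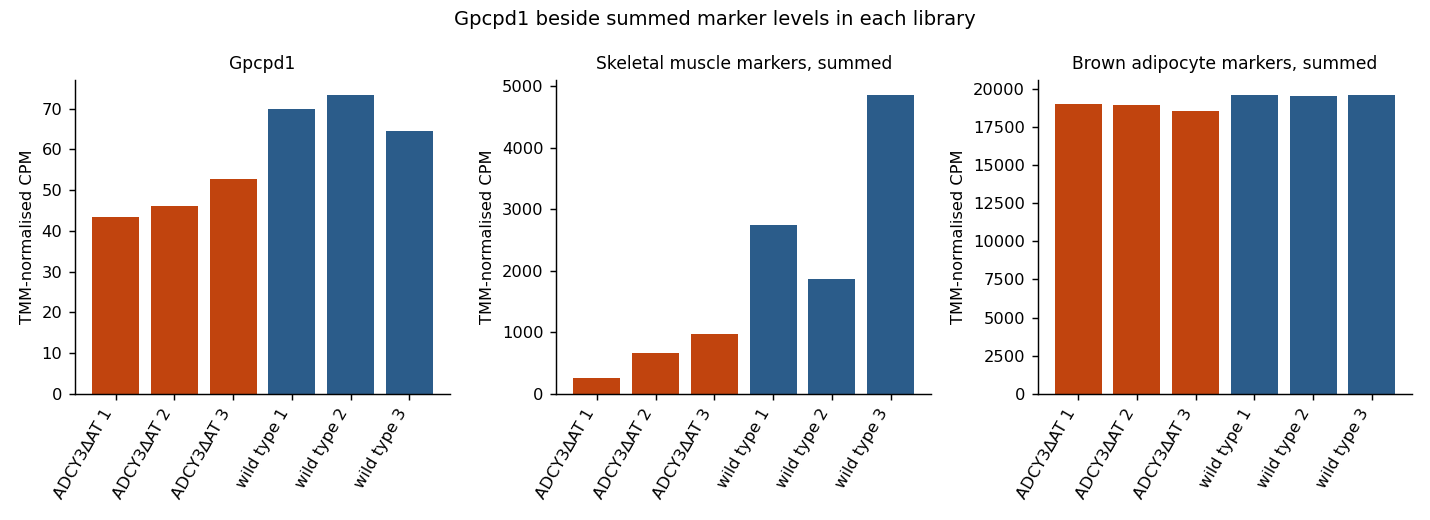
Gpcpd1 and the summed skeletal muscle and brown adipocyte markers in each library (bars, TMM-normalised CPM on axes from 0; ADCY3∆AT in red, wild type in blue). Gpcpd1 lies between 43.5 and 52.7 CPM in ADCY3∆AT and between 64.5 and 73.4 CPM in wild type, and the muscle sum is also lower in every ADCY3∆AT library. Among wild-type libraries the muscle sum is highest in replicate 3, where Gpcpd1 is lowest. Among ADCY3∆AT libraries both are lowest in replicate 1 and highest in replicate 3.

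Among the other diesterases, none was lower in every ADCY3∆AT library than in every wild-type library. Gde1 (ENSMUSG00000033917, chromosome 7, 118688545 to 118705778) had 198, 200.5 and 189 CPM in ADCY3∆AT libraries, against 202, 194 and 199 CPM in wild-type libraries. The groups overlap, and all libraries lie close together. Its log2 fold change was -0.02 ± 0.05 (SE), with a 95% interval from -0.13 to 0.10 and an edgeR adjusted p of 0.931.

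Gdpd5 (ENSMUSG00000035314, chromosome 7, 99381414 to 99461877) lay on the opposite side of wild type from Gpcpd1. It had 9.03, 8.80 and 7.83 CPM in ADCY3∆AT libraries, against 6.40, 5.63 and 6.08 CPM in wild-type libraries. Every ADCY3∆AT library was above every wild-type library, and replicate 3 was again the ADCY3∆AT library nearest to wild type. The log2 fold change was 0.50 ± 0.10 (SE; 95% interval 0.27 to 0.73). The adjusted p over all genes was 0.16 in edgeR, above the threshold of 0.05, and 0.0283 in DESeq2, where Gdpd5 was called higher. Adjusted p-values ran from 0.0283 to 0.622 over the 13 edgeR, DESeq2 and limma voom alternatives.

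Gdpd3 (ENSMUSG00000030703, chromosome 7, 126766334 to 126775649) was the most uneven of the listed genes. It had 1.25, 1.52 and 1.81 CPM in ADCY3∆AT libraries, against 12.2, 14.1 and 1.68 CPM in wild-type libraries. Only wild-type replicates 1 and 2 were high, and replicate 3 lay within the ADCY3∆AT range, so the groups overlap. The counts behind these values were 57, 75 and 84 in ADCY3∆AT and 671, 620 and 77 in wild type. A log2 fold change of -2.61 ± 0.65 (SE) was fitted, short of the threshold in both tools (edgeR adjusted p = 0.232, DESeq2 adjusted p = 0.0947). Leaving out wild-type replicate 3 gave -3.10 and a call (edgeR adjusted p = 0.00194), as did keeping all low-count genes in the test (edgeR adjusted p = 0.0178). Adjusted p-values ran from 0.00194 to 0.652 over the 13 alternatives. An antisense transcript, Gm9967, shares 13.6% of the exonic bases of Gdpd3 and had at most 0.328 CPM in any library. The genes on either side, singled out after the values had been seen, overlapped between genotypes, with Mapk3 (a MAP kinase) at 52.0, 52.8 and 53.6 CPM in ADCY3∆AT and 56.7, 56.2 and 48.2 CPM in wild type. Ypel3 had 26.4, 25.6 and 27.5 CPM in ADCY3∆AT and 26.2, 30.6 and 27.0 CPM in wild type.

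Gdpd1 (ENSMUSG00000061666, chromosome 11, 87033867 to 87074062) rested on few counts. It had 0.634, 0.792 and 1.25 CPM in ADCY3∆AT libraries, against 1.22, 1.07 and 0.787 CPM in wild-type libraries. The groups overlap fully on 29 to 67 estimated counts per library. The log2 fold change of -0.21 ± 0.31 (SE) had a 95% interval from -0.91 to 0.50 (edgeR adjusted p = 0.844).

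**Figure D2:**
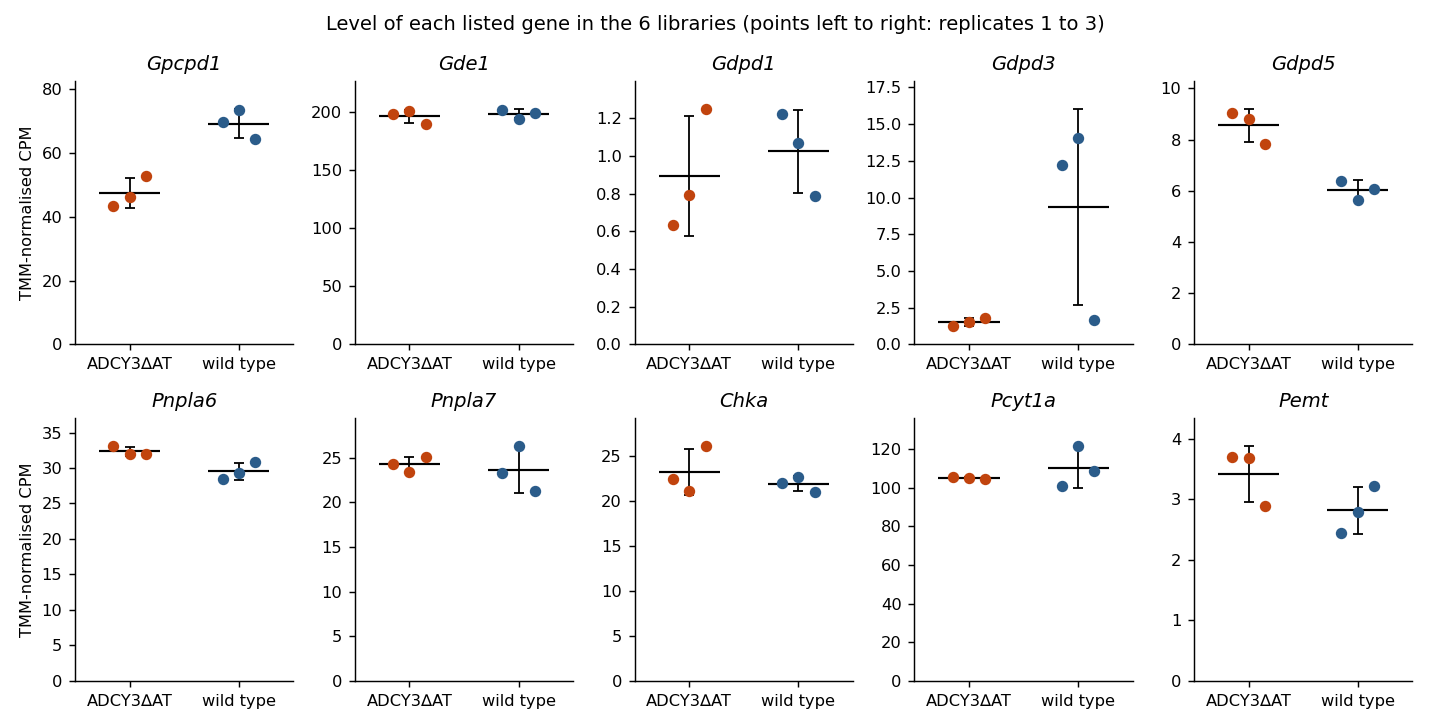
Levels of the 10 listed genes in TMM-normalised CPM, 1 panel a gene, ADCY3∆AT left and wild type right (points, replicates 1 to 3 from left to right; line and bar, mean and SD, n = 3 each). Gpcpd1 is lower and Gdpd5 and Pnpla6 are higher in ADCY3∆AT without overlap, and Gdpd3 is high in wild-type replicates 1 and 2 only.

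Of the enzymes that form glycerophosphocholine, Pnpla6 (neuropathy target esterase, ENSMUSG00000004565, chromosome 8, 3515384 to 3544267) had 33.1, 32.0 and 31.9 CPM in ADCY3∆AT libraries, against 28.5, 29.2 and 30.8 CPM in wild-type libraries. The groups do not overlap, but the gap is narrow. The log2 fold change was 0.13 ± 0.05 (SE; 95% interval 0.01 to 0.26) and did not pass over all genes (edgeR adjusted p = 0.419, DESeq2 adjusted p = 0.77). Pnpla7 (a lysophospholipase, ENSMUSG00000036833, chromosome 2, 24976033 to 25054057) had 24.3, 23.4 and 25.1 CPM in ADCY3∆AT libraries, against 23.3, 26.3 and 21.3 CPM in wild-type libraries. Here the ADCY3∆AT libraries lay inside the wild-type range, with a log2 fold change of 0.04 ± 0.08 (SE; 95% interval -0.15 to 0.23, edgeR adjusted p = 0.894).

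The enzymes that return choline to phosphatidylcholine overlapped between genotypes. Chka (ENSMUSG00000024843, chromosome 19, 3851773 to 3894369) had 22.5, 21.2 and 26.1 CPM in ADCY3∆AT libraries, against 22.0, 22.7 and 21.1 CPM in wild-type libraries. Only ADCY3∆AT replicate 3 stood above wild type, and the log2 fold change was 0.09 ± 0.08 (SE; 95% interval -0.11 to 0.28, edgeR adjusted p = 0.747). Pcyt1a, the rate-setting step of that route (ENSMUSG00000005615, chromosome 16, 32430921 to 32475070), had 105.4, 105.1 and 104.7 CPM in ADCY3∆AT libraries, against 101, 122 and 109 CPM in wild-type libraries. The ADCY3∆AT libraries were nearly equal and lay inside the wild-type range, with a log2 fold change of -0.07 ± 0.07 (SE; 95% interval -0.24 to 0.09, edgeR adjusted p = 0.76). Slc51a on the opposite strand shares 7.65% of its exonic bases and had at most 0.0454 CPM in any library. Pemt (ENSMUSG00000000301, chromosome 11, 59970614 to 60046489) had 3.70, 3.68 and 2.88 CPM in ADCY3∆AT libraries, against 2.44, 2.79 and 3.22 CPM in wild-type libraries. ADCY3∆AT replicates 1 and 2 were above wild type and replicate 3 was not, and the log2 fold change of 0.28 ± 0.17 (SE) had a 95% interval from -0.10 to 0.67 (edgeR adjusted p = 0.588).

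Counted together, 0 of the 9 listed genes other than Gpcpd1 passed over all genes in edgeR, against 0.00552% of the 18114 genes tested, a single row (ENSMUSG66666620654). DESeq2 called 1 of the 9, Gdpd5, higher, against 0.441% of the 19977 genes it tested called higher and 1.15% called in either direction. At an unadjusted p under 0.05 there were 2 higher (Gdpd5 and Pnpla6) and 1 lower (Gdpd3), against 5.23% of all genes tested higher and 5.78% lower. The groups did not overlap for 2 of the 9, both higher, against 7.68% of all genes tested. For Gpcpd1 the matching share, genes lower without overlap, was 8.83%, and nothing is read from it because that difference chose the gene. The median log2 fold change of the 9 was 0.04, beside 0.0039 over all genes tested. All 10 listed genes passed the filter on low counts.

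Between genes, levels were compared as CPM per kilobase of merged exons. Gde1 was the highest at 116.5 ± 2.7 (SD over 6 libraries), followed by Pcyt1a at 14.5 ± 1.0 and Gpcpd1 at 8.01 ± 1.74, whose own means were 6.51 in ADCY3∆AT and 9.502 in wild type. Each of these was above the next gene by mean (Pnpla7 for Gpcpd1) in all 6 libraries, with ranges that did not overlap. The range of Gpcpd1, 5.96 to 10.07, did overlap that of the uneven Gdpd3, which reached 6.44. The place of Gpcpd1 depends on the length used, since with the median transcript length it ranked 6 of 10, at 17.0, after Pnpla6 (51.0), Pnpla7 (33.5) and Chka (18.1), while Gde1 and Pcyt1a stayed first and second. Pnpla7 (3.19 ± 0.23) and Pnpla6 (3.19 ± 0.18) could not be ordered, each being the higher in 3 libraries. Chka followed at 1.88 ± 0.15, Pemt at 1.48 ± 0.24 and Gdpd5 at 1.08 ± 0.22, each above the next in all 6 libraries, although the ranges of Chka and Pemt and of Pemt and Gdpd5 overlap. Gdpd1 was the lowest at 0.41 ± 0.11. Gdpd3 has no fixed place, since it ranged from 0.57 to 6.44 and was above Pnpla6 and Chka in 2 libraries only, wild-type replicates 1 and 2.

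**Figure D3:**
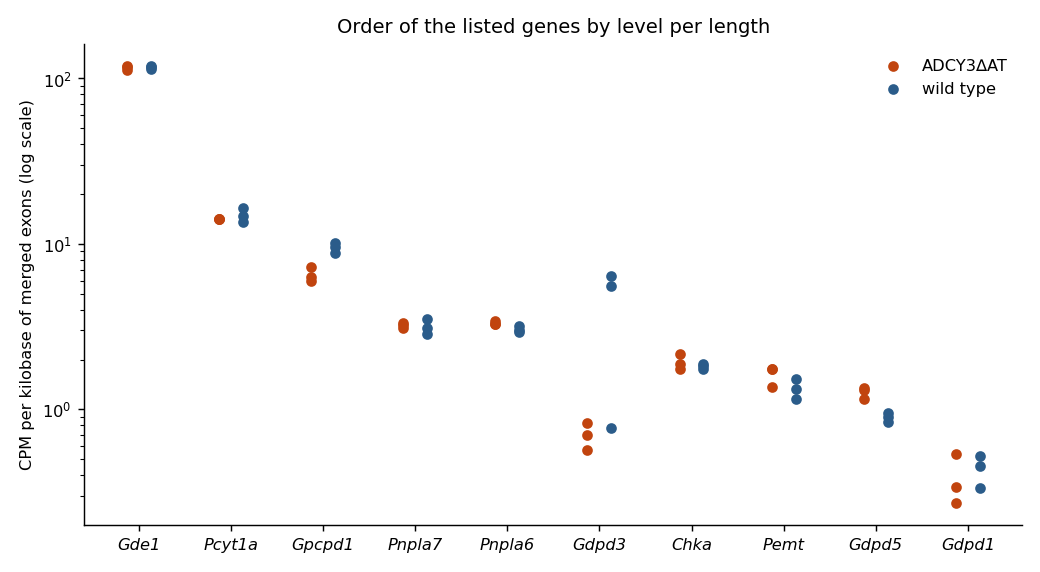
CPM per kilobase of merged exons (log axis) of the 10 listed genes, ordered by mean, with ADCY3∆AT libraries (red) left of wild-type libraries (blue) for each gene. On merged exon length, Gde1, Pcyt1a and Gpcpd1 are separated from their neighbours in the order, the place of Gpcpd1 changing with the median transcript length. Gdpd3 spans 0.57 to 6.44 and reaches into the range of Gpcpd1.

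Expressed as a share of the summed level per kilobase of the 5 diesterases, Gpcpd1 made up 4.76, 4.98 and 5.95% in ADCY3∆AT libraries, against 7.06, 7.60 and 6.88% in wild-type libraries. This share restates the Gpcpd1 difference on a sum that is mostly Gde1. Gdpd3 made up 0.455, 0.548 and 0.68% in ADCY3∆AT libraries, against 4.12, 4.86 and 0.60% in wild-type libraries. Gde1 made up 92.0 to 93.5% in ADCY3∆AT and 86.6 to 91.6% in wild type, although its own level per kilobase averaged 115.8 in ADCY3∆AT and 117.2 in wild type. Its share was higher where Gpcpd1 and Gdpd3 together took less of the sum. Gdpd5 contributed 0.955 to 1.07% in ADCY3∆AT and 0.631 to 0.702% in wild type.

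The wider pathway was described with 50 further genes in 7 lists, of which 40 passed the filter on low counts. None of the 40 passed over all genes in edgeR. At an unadjusted p under 0.05, 1 was higher and 4 were lower, against 5.23% and 5.78% of all genes tested, and DESeq2 called 1 lower, against 0.706% of all genes it tested. Their median log2 fold change was -0.02. The groups did not overlap for 2 genes that were higher and 7 that were lower in ADCY3∆AT, against 7.68% and 8.83% of all genes tested. Named after their values were seen, these were Pla2g6 and Chdh on the higher side, and Pnpla8, Lypla1, Lypla2, Pla2g15, Flvcr1, Pcyt2 and Ptdss2 on the lower side.

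Among the phospholipases and lysophospholipases (10 tested, median log2 fold change -0.04), the gene called by DESeq2 was Pla2g15, the lysosomal phospholipase A2. It had 14.3, 16.0 and 17.2 CPM in ADCY3∆AT libraries, against 19.8, 20.7 and 20.95 CPM in wild-type libraries. The groups do not overlap, and the log2 fold change was -0.37 ± 0.08 (SE; edgeR adjusted p = 0.176, DESeq2 adjusted p = 0.0296). Lypla1, an acyl-protein thioesterase first described as a lysophospholipase, had -0.12 ± 0.06 (SE; edgeR adjusted p = 0.474).

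Of the genes of phosphatidylethanolamine and its methylation outside the listed ones (7 tested, median log2 fold change -0.03), the lowest p-values belonged to Ptdss2 and Selenoi. Ptdss2, a phosphatidylserine synthase, had 49.1, 51.0 and 53.3 CPM in ADCY3∆AT libraries, against 60.1, 59.8 and 58.8 CPM in wild-type libraries. The wild-type libraries were nearly equal and all higher, with a log2 fold change of -0.22 ± 0.05 (SE; edgeR adjusted p = 0.209). Selenoi, ethanolamine phosphotransferase, overlapped between groups at -0.24 ± 0.09 (SE; edgeR adjusted p = 0.381).

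In choline uptake and the CDP-choline route (9 further genes tested, median log2 fold change -0.05), the transporter Flvcr1 had 12.6, 11.6 and 12.9 CPM in ADCY3∆AT libraries, against 13.5, 19.0 and 15.7 CPM in wild-type libraries. Its groups do not overlap, and the wild-type libraries are widely spread (log2 fold change -0.38 ± 0.12, SE; edgeR adjusted p = 0.328). Cept1, the choline and ethanolamine phosphotransferase, had -0.10 ± 0.06 (SE; edgeR adjusted p = 0.627). The choline oxidation list (3 tested, all with positive fold changes) was led by Chdh, choline dehydrogenase, with 102, 94.5 and 90.1 CPM in ADCY3∆AT libraries, against 84.8, 82.2 and 85.5 CPM in wild-type libraries. These groups do not overlap either, and the log2 fold change of 0.18 ± 0.06 (SE) did not pass (edgeR adjusted p = 0.331). Sardh, sarcosine dehydrogenase, had 0.05 ± 0.08 (SE; edgeR adjusted p = 0.854).

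The remaining lists held no gene at an unadjusted p under 0.05. In lysophospholipid reacylation (7 tested, median log2 fold change 0.01), the acyltransferases Mboat2 and Mboat7 had 0.16 ± 0.16 and -0.05 ± 0.06 (SE; edgeR adjusted p = 0.76 and 0.806). The glycerol 3-phosphate dehydrogenases, which use the other product of Gpcpd1 cleavage, had log2 fold changes of 0.04 (Gpd1), 0.07 (Gpd1l) and 0.05 (Gpd2), with edgeR adjusted p-values from 0.74 to 0.899. Of the diesterases outside the listed ones, Enpp6, which cleaves glycerophosphocholine to phosphocholine, had 0.255 to 0.547 CPM over all libraries (log2 fold change -0.52 ± 0.38, SE; edgeR adjusted p = 0.655). Gdpd2 had 0.0227 CPM in wild-type replicate 2 and was listed at 0 elsewhere. Gdpd4 was listed at 0 in all 6 libraries, where 3 counts would have been 0.0547 to 0.0681 CPM.

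**Figure D4:**
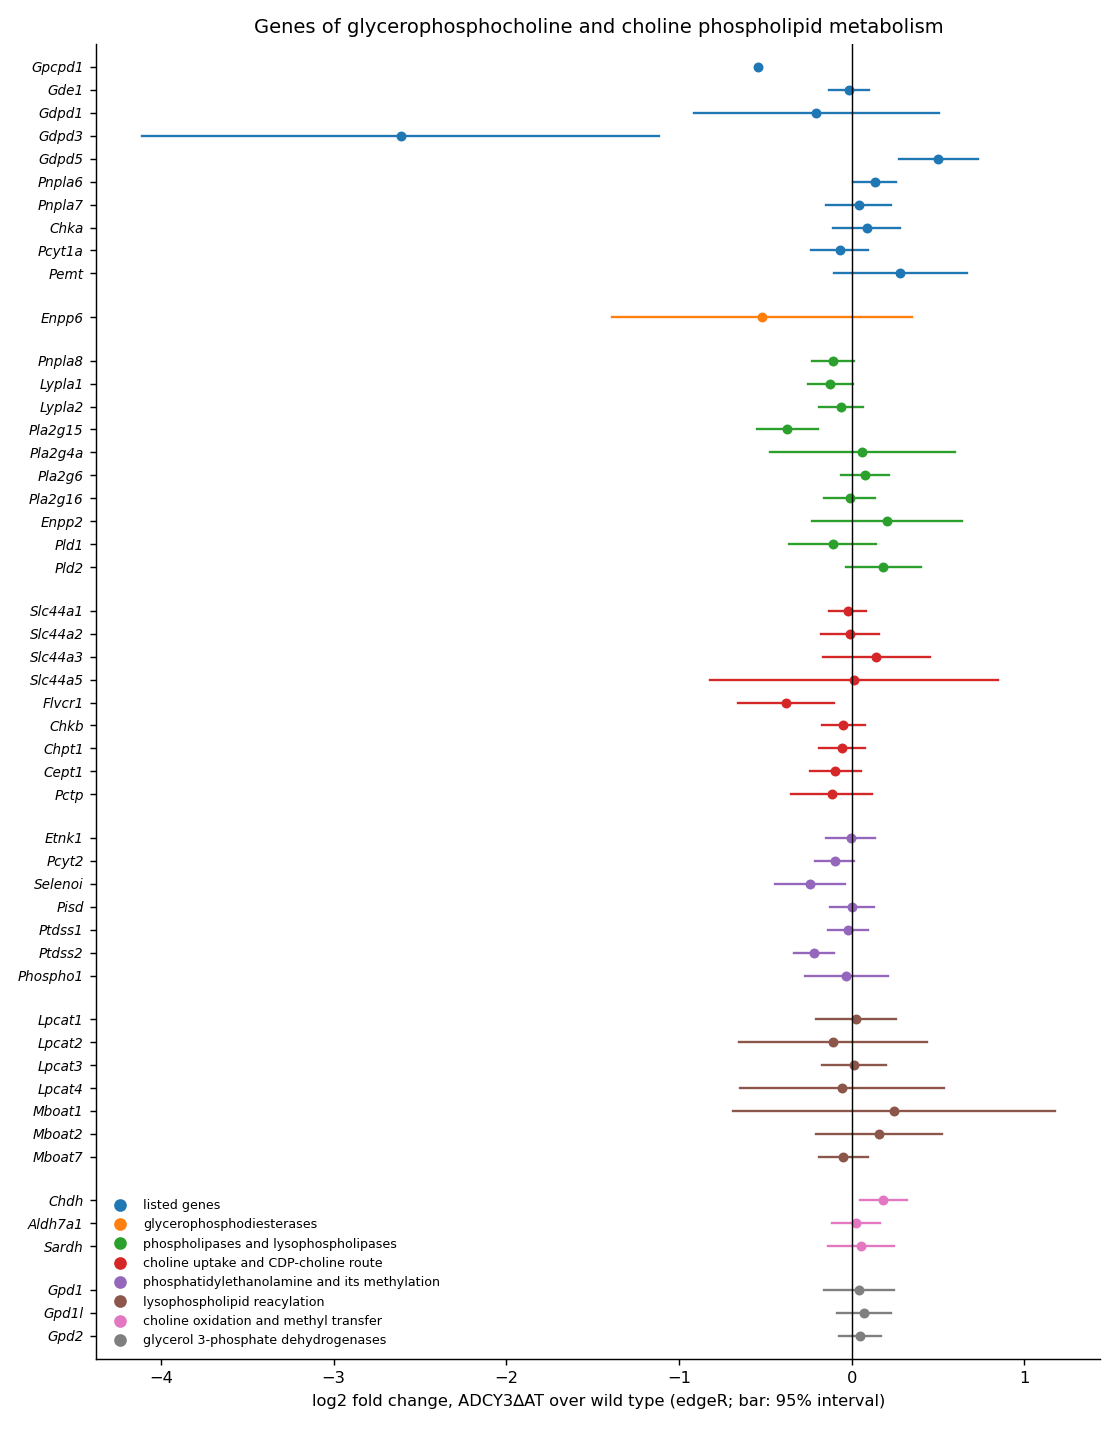
Log2 fold change of ADCY3∆AT over wild type for the 10 listed genes and the 40 further pathway genes tested (points; bars, 95% intervals of the edgeR fit, with none drawn for Gpcpd1, which was chosen for this difference). Most intervals include 0. Those of Gdpd3 (-2.61), Flvcr1 (-0.38), Pla2g15 (-0.37), Selenoi (-0.24) and Ptdss2 (-0.22) lie below 0. Those of Gdpd5 (0.50), Chdh (0.18) and Pnpla6 (0.13) lie above 0. The intervals are not adjusted for the number of genes.

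Over the 6 libraries, 12182 tested genes were ranked by how close their centred log2 CPM profile was to that of Gpcpd1. These genes had a symbol and a log2 CPM that averaged 1 or more, and the listed genes were left out beforehand. The 5 closest were Slc7a6 (an amino acid transporter), Gm20400, Elovl4 (an elongase of very long fatty acids), Rfx2 (a transcription factor) and Gm43072, at root mean square distances of 0.061, 0.069, 0.078, 0.080 and 0.082 log2 units. Slc7a6 had 55.02, 56.6 and 68.9 CPM in ADCY3∆AT libraries, against 80.4, 87.4 and 81.2 CPM in wild-type libraries. As with Gpcpd1, replicate 3 was the highest ADCY3∆AT library and replicate 2 the highest wild-type library. Its log2 fold change was -0.46 ± 0.09 (SE), a description only, since likeness to Gpcpd1 chose it.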

How the data were processed

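Total RNA of 6 libraries was sequenced as paired ends after NEBNext Ultra II library preparation, per the labels. The deposited table holds raw estimated counts for each Ensembl gene, and 31.6% of its values carry decimals. The submitters' processing notes name StringTie, Salmon, edgeR and the build GRCm38. Versions, roles and settings, strand use included, were not given in the sources used here. Reads shared by overlapping genes may have been divided in unknown ways. Of 54385 rows, 54131 matched a symbol in GENCODE M21 (GRCm38), which also gave coordinates and exon lengths.

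The values were rounded, filtered with filterByExpr, which left 18114 genes, and scaled by TMM. Genotype alone was tested by quasi-likelihood F in edgeR 4.0.16 (R 4.3.3), with p-values adjusted over all genes by Benjamini-Hochberg and a threshold of 0.05. Standard errors and 95% intervals follow from the F statistic. Fold changes are ADCY3∆AT over wild type. Alternatives were RLE factors, library totals, no low-count filter, at least 1 CPM in at least 3 libraries, DESeq2 1.42.0, limma voom (limma 3.58.1), an adjusted p of 0.1, the replicate number as a block, and leaving out each library. The fits were tried on simulated counts. The labels do not say that replicates are separate animals, so the p-values reflect only how these samples vary, possibly for technical reasons. Chi-square per degree of freedom was 24.4 to 72.6 between libraries, and no library was taken for a copy of another. The listed genes and the pathway and marker lists were chosen with earlier results of these data known. Named were the listed genes, Adcy3 and its related row, per pathway list the 2 genes with the lowest p and any past the threshold, and the 5 genes with profiles closest to Gpcpd1. The neighbours of Gdpd3 were added after their values had been seen.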

Additional observations from a re-analysis of the deposited data

How the results depend on the processing

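The count of genes called over all genes was 1 and became 214 without a low-count filter, 229 in DESeq2, 2 in limma voom and 3 with the replicate number as a block, and 1 to 66 when a library was left out, with 66 without ADCY3∆AT replicate 3. The cause was not tested. Same-numbered libraries did not deviate together (r = -0.0857, -0.128 and -0.0864), 0 of the 6 libraries correlated best with their own number, and the block called 0 of the 9 listed genes other than Gpcpd1.

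Of the 9 listed genes other than Gpcpd1, 1 was called without a low-count filter (Gdpd3) and 1 in DESeq2 (Gdpd5), and 0 to 1 when a library was left out (Gdpd3, without wild-type replicate 3). Of the other pathway genes 1 was called in DESeq2. Small fold changes turned sign when a library was left out, over ranges of -0.0333 to 0.0072 for Gde1, -0.0061 to 0.1494 for Chka, -0.0303 to 0.1225 for Pnpla7 and -0.1311 to 0.0054 for Pcyt1a. The sign turned without ADCY3∆AT replicate 3 for Gde1 and Chka, without wild-type replicate 3 for Pnpla7 and without wild-type replicate 2 for Pcyt1a.

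Of the 10 ranks by level per length, 4 were kept with the median transcript length, where Gpcpd1 ranked 6, and 7 with the longest coding transcript, a length chosen after seeing the data. Depth limits Gdpd1, with 29 to 67 counts, and Gdpd3 in 4 libraries, with 57 to 84.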
